A study of Mus musculus with 16 samples.

Results

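The genes described here are the chemokines, interleukin-1-prefixed cytokines and receptors, colony-stimulating factor 1, tumour necrosis factor and the NF-kB and TNFAIP genes of cultured mouse epicardium. They were taken by symbol from the count table: every gene whose name begins with Ccl, Cxcl, Il1, Nfkb or Tnfaip followed by a letter or number, together with Cx3cl1, Rela, Relb, Csf1, Csf2 and Tnf, and without Il11 and Il11ra1. The rule found 57 of the 15805 genes in the table, and none was chosen for its values. No gene in the table bore the name Csf2. Of the 57 genes, 28 were above 1 CPM (counts scaled to the library total) in all 16 libraries and 10 had a count of 0 in at least 1 library. Because the prefix Il1 is read as letters, the set also holds the receptors of interleukins 10, 12, 13, 15 and 17 and the antisense RNA Il1bos.

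RNA was sequenced from primary epicardial explants of C57BL6 mice grown on collagen gel. In 8 explants blebbistatin, an inhibitor of nonmuscle myosin II, had been added, at a dose given as 20 mM in the design and with the unit written mm in the treatment protocol, so the unit is uncertain, and 8 explants were untreated controls. No age, vehicle or treatment time was given, and blebbistatin acts on more than one myosin II isoform. The labels do not say whether the explants came from separate animals, so p-values here measure the spread between these 16 samples. An explant is a mixture of cells, and in such a bulk sample fewer cells of a type and less RNA per cell cannot be told apart.

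Chemokines are small secreted proteins that draw leukocytes along a gradient through G-protein-coupled receptors, whereas the interleukin-1 and TNF families signal through receptor complexes that activate the kinase IKK. IKK marks the I-kappa-B inhibitors for destruction, which frees NF-kB dimers to enter the nucleus and switch on inflammatory genes, among them many chemokines, Tnf and the inhibitors themselves. In the heart, resident macrophages are a major source of CC chemokines and TNF, while mesothelial and stromal cells make Csf1 and Cxcl12. NF-kB is controlled largely by protein turnover and localisation, which RNA levels do not measure.

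NF-kB dimers bind a 10-base element, the kB consensus, and the promoter windows of 4 of the genes are shown as examples. Ccl3 and Ccl9 had the steepest rise with macrophage marker RNA relative to its error. Csf1 had the highest level per length, and Nfkbia is a textbook NF-kB target. Each window runs from 250 bases before to 50 bases after the RefSeq start on build GRCm38.p6, is printed 5′ to 3′ along the gene, and has a match to the kB consensus on either strand in capitals. The windows lie at chr11:83649329-83649628, chr11:83578587-83578886, chr3:107760420-107760719 and chr12:55492598-55492897 in that order of genes, all on the minus strand.
Ccl3: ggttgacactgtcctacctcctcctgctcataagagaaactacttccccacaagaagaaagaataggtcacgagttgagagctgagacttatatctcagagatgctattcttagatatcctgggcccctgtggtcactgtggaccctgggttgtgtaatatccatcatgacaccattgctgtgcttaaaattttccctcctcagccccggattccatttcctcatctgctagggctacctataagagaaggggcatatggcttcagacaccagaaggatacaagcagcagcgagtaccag
Ccl9: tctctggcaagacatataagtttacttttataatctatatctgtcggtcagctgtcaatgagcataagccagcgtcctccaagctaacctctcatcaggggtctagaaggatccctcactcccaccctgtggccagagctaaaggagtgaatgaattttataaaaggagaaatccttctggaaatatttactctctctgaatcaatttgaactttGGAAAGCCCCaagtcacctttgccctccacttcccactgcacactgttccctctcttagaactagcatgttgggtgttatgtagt
Csf1: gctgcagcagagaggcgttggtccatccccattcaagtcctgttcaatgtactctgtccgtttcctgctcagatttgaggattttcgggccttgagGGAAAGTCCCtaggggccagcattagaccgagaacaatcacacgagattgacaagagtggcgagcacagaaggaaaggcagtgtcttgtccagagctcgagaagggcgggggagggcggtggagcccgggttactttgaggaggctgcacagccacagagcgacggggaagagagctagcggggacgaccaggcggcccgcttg
Nfkbia: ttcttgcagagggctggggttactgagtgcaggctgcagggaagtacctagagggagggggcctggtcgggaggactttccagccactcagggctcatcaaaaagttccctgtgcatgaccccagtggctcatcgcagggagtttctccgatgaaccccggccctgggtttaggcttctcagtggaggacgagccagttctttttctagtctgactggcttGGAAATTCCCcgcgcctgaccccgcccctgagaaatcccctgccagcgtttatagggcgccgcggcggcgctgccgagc
The Ccl9 match began 35 bases before the start, the Csf1 match 154 bases before it and the Nfkbia match 29 bases before it. Of the 45 genes of the set with a window in the table, 9 (20.0%) held a kB consensus match, against 4.51% of 32851 windows of all genes. These were Ccl9, Csf1, Cxcl1, Il12rb2, Nfkb2, Nfkbia, Nfkbie, Tnfaip3 and Tnfaip8l1.  The myeloid PU.1-type element GAGGAAGT, sought on both strands, was in none of the 45 windows and in 3.2% of all windows. A match is a description of the letters, and the data hold no measurement of factor binding.

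Libraries ranged from 20176386 to 89620195 counts in blebbistatin explants and from 27065611 to 60321622 in controls. All 10 epicardial markers sought were in the table, led by Lrrn4, Upk1b and Upk3b, as the labelled cell type calls for. Their sum averaged 3043 ± 1351 CPM in blebbistatin explants and 4167 ± 1400 CPM in controls (SD, n = 8 each, 2-sided exact permutation p = 0.124, adjusted p = 0.326). Of the 10 log2 fold changes 1 was positive, the median was -0.47, and 0 passed the edgeR test. At an unadjusted p under 0.05, 4 of the 10 were lower and 0 higher, against 5.98% and 6.21% of all genes. Of 20 macrophage markers, 17 were in the table, led by Lyz2, Cd68 and Mpeg1. Markers of other leukocytes were few and low: 2 of 8 T-cell markers, 1 of 6 B-cell markers, 1 of 9 neutrophil markers (Csf3r), 1 of 7 mast-cell markers and 2 of 5 platelet markers, with the T-cell sum at 0.750 to 3.78 CPM in blebbistatin explants and 1.43 to 3.97 CPM in controls. The Y-linked gene Ddx3y was at 56.2 to 83.2 CPM in blebbistatin libraries 1, 2, 3, 6 and 8 and in controls 4 and 5. Xist was 342 CPM in control 5 as well. Y-linked RNA was thus not balanced between the groups. With a Y-linked covariate in the model, 22 genes of the whole table were called for blebbistatin, against 95 without it. The summed cardiomyocyte markers averaged 988 ± 137 CPM in blebbistatin explants and 653 ± 203 CPM in controls (SD, n = 8 each, 2-sided exact permutation p = 0.00311, adjusted over 11 measures 0.0179), and mitochondrially encoded genes took 21.4 ± 3.21% and 16.4 ± 1.70% of counts (exact permutation p = 0.00326, adjusted p = 0.0179). Most of the cardiomyocyte sum was Tnnt2 (853 CPM in blebbistatin explants and 540 CPM in controls), while Myl7 was 77.9 and 93.5 CPM in the same order. Of 10 cardiomyocyte markers sought 6 were in the table, and of these Actc1 and Myh6 averaged 1.70 and 1.30 CPM over all libraries and were not tested. Of the 4 cardiomyocyte markers tested 3 had positive log2 fold changes. Among them Ttn was called higher, at 48.2 CPM in blebbistatin explants and 15.5 CPM in controls (log2 fold change 1.64, edgeR adjusted p = 0.0464). The part of the epicardial, cardiomyocyte and mitochondrial differences in the values below was not tested.

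Macrophage marker RNA differed many-fold among explants of either group. The sum of the 17 macrophage markers was lowest at 341, had a median of 1107 and was highest at 4827 CPM in blebbistatin explants, against 373, 824 and 4905 CPM in controls. The ranges of the 2 groups nearly coincided, and the difference of means was -16.9 CPM (2-sided exact permutation test over 12870 splits, p = 0.980). Lyz2 made up much of the sum, at a mean of 711 CPM in blebbistatin explants and 954 CPM in controls (log2 fold change -0.42), whereas 14 of the 16 markers tested had positive log2 fold changes, with a median of 0.44 and 0 called by edgeR or at an unadjusted p under 0.05. On the log scale the macrophage score, the mean log2 CPM of the same 17 genes, was 4.35 ± 1.56 in blebbistatin explants and 4.38 ± 1.20 in controls (SD, n = 8 each). The highest scores were 7.07 in blebbistatin 3 and 5.72 in blebbistatin 6, and 6.37 in control 6 and 5.83 in control 3. Blebbistatin 6, blebbistatin 3 and control 6 also had the lowest epicardial marker sums, at 1382, 1819 and 2182 CPM. Control 3 had 3403 CPM of epicardial markers beside its score of 5.83, and blebbistatin 2 had 5093 CPM beside 5.02, so the order was not strict.

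Blebbistatin changed none of the 57 genes past the threshold. With edgeR's quasi-likelihood test and Benjamini-Hochberg adjustment over all 15675 genes tested, 0 genes of the set were higher and 0 lower at an adjusted p under 0.05, against 0.606% of all genes in either direction (0.255% higher and 0.351% lower). At an unadjusted p under 0.05, 4 genes of the set were higher and 2 lower, which is 10.5% of the set against 12.2% of all genes (6.21% higher and 5.98% lower). After adjustment 0 genes of the set passed with DESeq2 and 0 with limma-voom, where 412 and 123 of all genes did. Unadjusted, DESeq2 gave 10 genes of the set and limma-voom 9. The share of all genes at that level was counted for edgeR alone, so the 12.2% is no measure for these counts. Not 1 gene of the set had non-overlapping blebbistatin and control libraries, against 0.236% of all genes. Of the 57 log2 fold changes 41 were positive with a median of 0.35, against 8475 positive and a median of 0.04 among all genes tested. Among the 29 genes of at least 5 CPM on average 19 were positive with a median of 0.20, and among the 28 lower genes 22 were positive with a median of 0.52. Of all genes tested, 5439 of 10608 at that level were positive with a median of 0.01, and 3036 of 5067 lower ones with a median of 0.16. The deposited table keeps genes above 1 CPM in at least 4 libraries, and 7 of the 57 met this through 1 group alone. The signs of these 7 are not independent of that filter. In 43 of the 57 genes (75.4%) the highest library was a blebbistatin one, and in 19 (33.3%) it was blebbistatin 3, the library of highest macrophage score, against 57.4% and 8.14% of all genes. Without blebbistatin 3, 34 of the 57 log2 fold changes were positive with a median of 0.15, against 52.6% and a median of 0.02 among all genes.

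**Figure D1:**
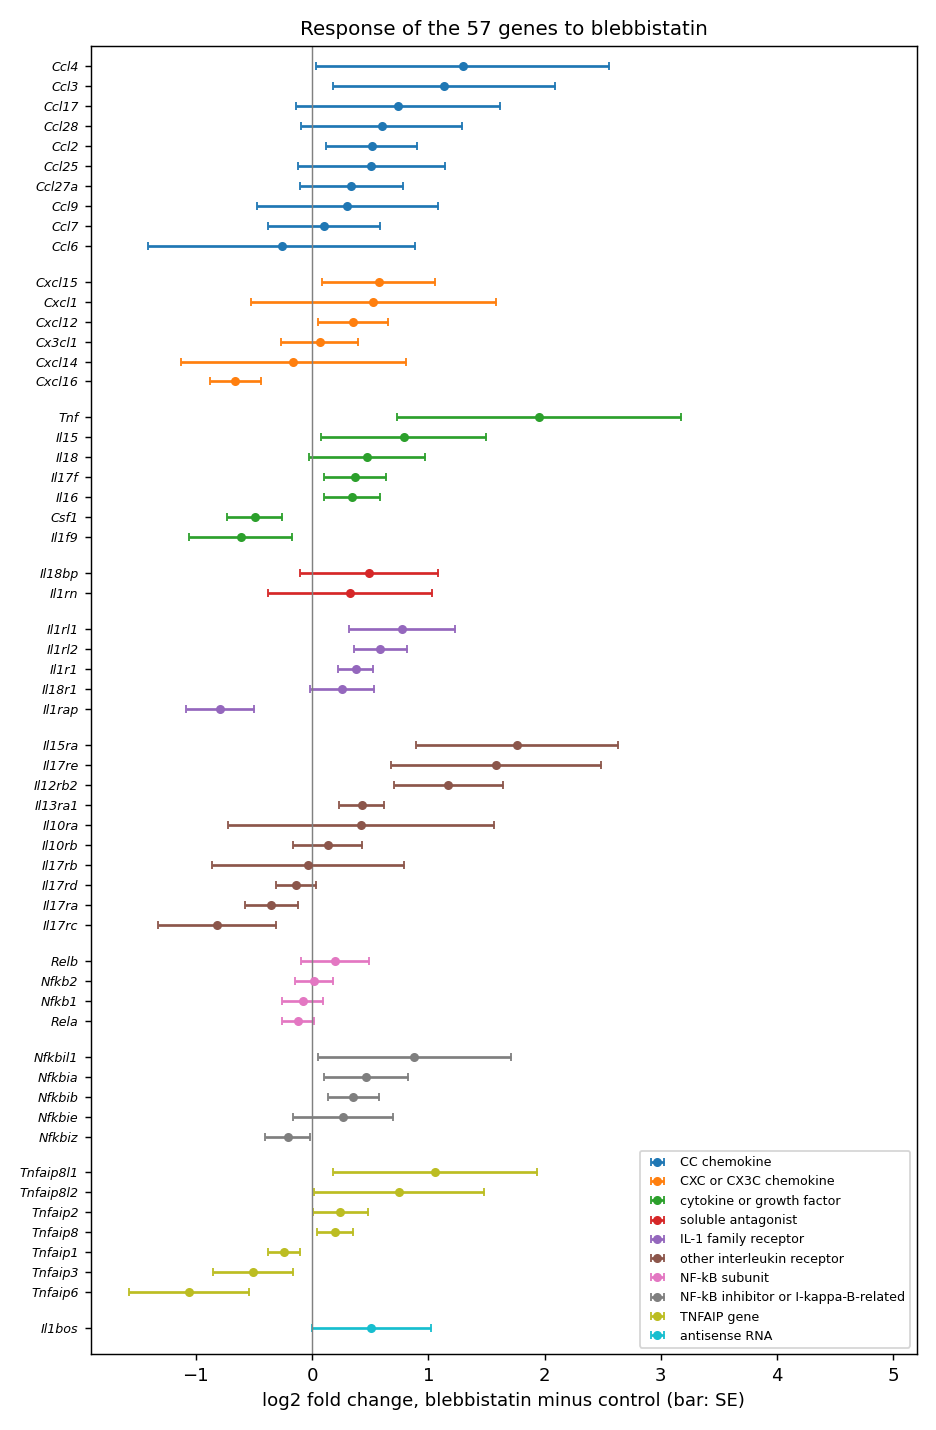
Log2 fold change of blebbistatin over control (x axis, point) with its standard error (bar) for each of the 57 genes, grouped by role. Tnf has the largest positive value at 1.96, Tnfaip6 the largest negative at -1.06, and the NF-kB subunits sit close to 0.

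Compared per length, the most abundant ligand was Csf1, the growth factor that macrophages need for survival, at a mean of 85.3 CPM per kb in blebbistatin explants and 120 CPM per kb in controls. Next came Ccl2, which recruits monocytes, at 43.8 and 30.7 CPM per kb, by the scavenger-receptor chemokine Cxcl16 at 30.3 and 47.9 CPM per kb, and by Cxcl12, the stromal ligand of Cxcr4, at 29.8 and 23.3 CPM per kb, in blebbistatin explants and controls in each pair. Cxcl16 ranked above Ccl2 in controls and below it in blebbistatin explants. On the CPM scale, Csf1 was 223, 480 and 698 CPM (lowest, median and highest) in blebbistatin explants and 289, 654 and 879 CPM in controls. In 7 of 8 blebbistatin explants Csf1 was below the control median, yet the groups overlapped over most of their range. Its log2 fold change was -0.49 (SE 0.24, edgeR adjusted p = 0.415).

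Cxcl16, which exists as a membrane-bound and a shed form and attracts cells bearing Cxcr6, had the smallest p of the set. It was 52.9, 86.1 and 142 CPM in blebbistatin explants and 84.3, 135 and 252 CPM in controls (lowest, median and highest). Blebbistatin explants lay below the control median in 7 of 8 cases, with blebbistatin 1 at 142 CPM the exception, and the groups overlapped. The log2 fold change was -0.66 (SE 0.22, edgeR adjusted p = 0.188). Its exons are overlapped on the other strand by Zmynd15, which averaged 8.64 CPM in blebbistatin explants and 9.93 CPM in controls, far below Cxcl16.

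Cxcl12 was 113, 179 and 512 CPM in blebbistatin explants and 126, 167 and 319 CPM in controls, with the highest value in blebbistatin 1 and medians close together (log2 fold change 0.35, SE 0.30, edgeR adjusted p = 0.693). Ccl2 was 12.3, 34.5 and 154 CPM against 22.4, 31.5 and 49.6 CPM in controls. Its highest value was in blebbistatin 3, and the log2 fold change was 0.51 (SE 0.39, edgeR adjusted p = 0.650). Its chromosome 11 neighbour Ccl7, also a monocyte attractant, averaged 3.48 ± 3.65 CPM in blebbistatin explants and 3.25 ± 1.40 CPM in controls (SD, n = 8 each). Cx3cl1, the membrane-anchored ligand of the macrophage receptor Cx3cr1, was 7.49 ± 3.14 CPM in blebbistatin explants and 7.15 ± 3.28 CPM in controls. Cxcl1, Cxcl14, Ccl28 and the lung chemokine Cxcl15 averaged at most 2.64 CPM in either group.

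Other cytokines were low. Il16 averaged 9.97 ± 3.39 CPM in blebbistatin explants and 7.86 ± 2.22 CPM in controls, and Il17f 8.70 ± 2.90 and 6.73 ± 2.24 CPM in the same order. Il18, an inflammasome product that signals through Il18r1, averaged 3.99 ± 1.90 CPM in blebbistatin explants and 2.88 ± 1.96 CPM in controls, and its soluble antagonist Il18bp 1.30 ± 0.850 and 0.925 ± 0.639 CPM. Il15 and Il1f9, which encodes interleukin 36 gamma, averaged under 1.5 CPM in both groups. Exons of Il16 and Il18bp overlap those of Stard5 and Numa1 on the other strand, and without strand in the counting the reads of such pairs cannot be told apart; 16 genes of the set have exons overlapped by another gene.

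The interleukin-1 family receptors held 3 of the 6 genes with an unadjusted p under 0.05, and these did not share a direction. Il1r1, the signalling receptor of interleukin 1, was 127, 173 and 205 CPM in blebbistatin explants and 71.9, 132 and 170 CPM in controls. Blebbistatin explants lay above the control median in 7 of 8 cases, and the log2 fold change was 0.38 (SE 0.15, edgeR adjusted p = 0.296). Its neighbour Il1rl2, the interleukin 36 receptor, was 32.6, 47.3 and 85.9 CPM in blebbistatin explants and 20.6, 32.9 and 59.1 CPM in controls. Again 7 of 8 blebbistatin explants were above the control median, with a log2 fold change of 0.59 (SE 0.23, edgeR adjusted p = 0.281). The shared co-receptor Il1rap went the other way, at 5.52, 19.0 and 32.3 CPM in blebbistatin explants and 20.1, 29.8 and 38.0 CPM in controls. Here 7 of 8 blebbistatin explants were below the control median, and the log2 fold change was -0.79 (SE 0.29, edgeR adjusted p = 0.251).

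Il1r1, Il1rl2, Il1rl1 and Il18r1 lie side by side on the plus strand of chromosome 1, within chr1:40225080-40317257, chr1:40324610-40367562, chr1:40429570-40465415 and chr1:40465552-40500854 (GRCm38, GENCODE M21). Il1rl1, the interleukin 33 receptor, averaged 1.61 ± 0.953 CPM in blebbistatin explants and 0.942 ± 0.549 CPM in controls (log2 fold change 0.77, SE 0.46, edgeR adjusted p = 0.532). Il18r1 averaged 27.7 ± 11.2 CPM in blebbistatin explants and 23.2 ± 9.39 CPM in controls (log2 fold change 0.26, SE 0.27, edgeR adjusted p = 0.758). All 4 fold changes of the cluster were positive, and none passed the test.

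Of the other interleukin receptors, Il13ra1, a chain shared by the interleukin 4 and 13 receptors, was 25.7, 35.1 and 49.4 CPM in blebbistatin explants and 17.0, 26.1 and 44.3 CPM in controls. It was above the control median in 7 of 8 blebbistatin explants (log2 fold change 0.43, SE 0.19, edgeR adjusted p = 0.374). Il12rb2, the signalling chain of the interleukin 12 receptor, was 2.08, 4.34 and 15.5 CPM in blebbistatin explants and 0.679, 2.34 and 6.42 CPM in controls (log2 fold change 1.17, SE 0.47, edgeR adjusted p = 0.294). Exons of Il12rb2 overlap Serbp1 on the other strand, which was far higher at a mean of 359 CPM in blebbistatin explants and 380 CPM in controls, so its counts are uncertain. Il17ra, the common interleukin 17 receptor chain, was 22.2, 51.6 and 60.9 CPM in blebbistatin explants and 28.2, 64.1 and 83.0 CPM in controls. All 8 blebbistatin explants lay below the control median of Il17ra (log2 fold change -0.35, SE 0.23, edgeR adjusted p = 0.577). Its signalling modulator Il17rd averaged 32.8 ± 7.68 CPM in blebbistatin explants and 36.1 ± 7.79 CPM in controls, and Il17rb, Il17rc, Il17re, Il15ra and Il10ra averaged at most 3.15 CPM.

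**Figure D2:**
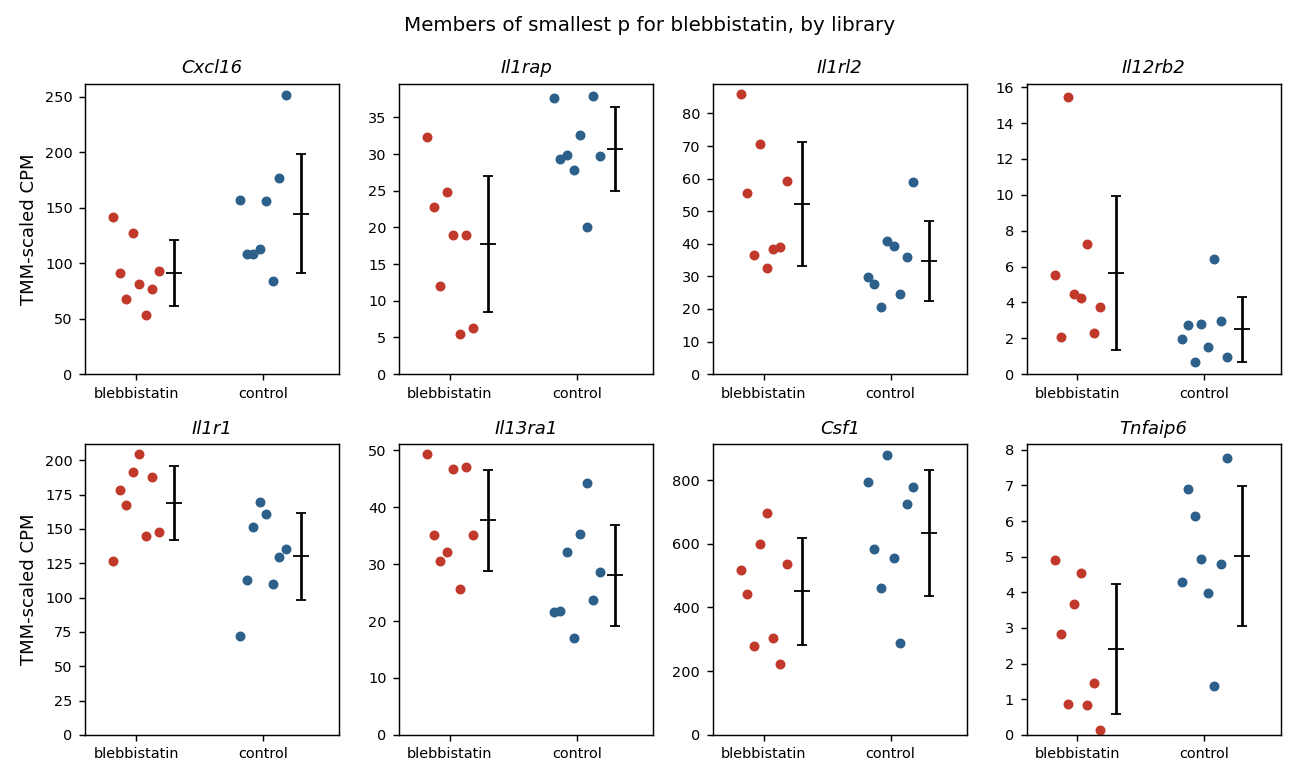
TMM-scaled CPM (y axis, from 0) of the 8 genes with the smallest p for blebbistatin, one point per library with blebbistatin left of control; black marks give mean and SD, n = 8 each. In every panel the groups overlap; Cxcl16, Il1rap, Csf1 and Tnfaip6 average lower in blebbistatin explants and Il1rl2, Il12rb2, Il1r1 and Il13ra1 higher.

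The NF-kB subunits stayed close to 0 in fold change, and Rela and Nfkb2 had the narrowest ranges over libraries of the 57 genes. Rela, the main transactivating subunit, averaged 34.3 ± 6.42 CPM in blebbistatin explants and 37.3 ± 5.53 CPM in controls (SD, n = 8 each), and its highest library was 1.70 times its lowest. The log2 fold change of Rela was -0.12 (SE 0.14, edgeR adjusted p = 0.773). Nfkb1, the p105/p50 precursor, averaged 38.6 ± 9.13 CPM in blebbistatin explants and 40.8 ± 9.72 CPM in controls (log2 fold change -0.08, SE 0.18, edgeR adjusted p = 0.888). Nfkb2 averaged 22.2 ± 3.94 and 22.0 ± 5.04 CPM, with a highest library 1.88 times its lowest, and its non-canonical partner Relb 8.11 ± 3.55 and 7.09 ± 2.62 CPM, in blebbistatin explants and controls in each pair. The log2 fold changes were 0.01 (SE 0.16) for Nfkb2 and 0.20 (SE 0.29) for Relb, with edgeR adjusted p-values of 0.982 and 0.828.

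The inhibitors, some of which NF-kB itself induces, did not pass the test either. Nfkbia averaged 8.15 ± 4.63 CPM in blebbistatin explants and 5.90 ± 2.76 CPM in controls (log2 fold change 0.47, SE 0.36, edgeR adjusted p = 0.654). Nfkbib averaged 13.3 ± 4.39 and 10.4 ± 2.32 CPM, Nfkbie 4.28 ± 1.73 and 3.57 ± 2.13 CPM, and the nuclear family member Nfkbiz 27.6 ± 8.12 and 31.9 ± 7.84 CPM, in blebbistatin explants and controls in each pair. Tnfaip3, the A20 ubiquitin-editing enzyme that ends NF-kB signalling, averaged 5.57 ± 3.64 CPM in blebbistatin explants and 7.95 ± 1.69 CPM in controls (log2 fold change -0.51, SE 0.34, edgeR adjusted p = 0.596).

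Among the other TNFAIP genes, Tnfaip6 encodes the hyaluronan-binding protein TSG-6. It was 0.150, 2.15 and 4.90 CPM in blebbistatin explants and 1.38, 4.86 and 7.77 CPM in controls, and 7 of 8 blebbistatin explants lay below the control median (log2 fold change -1.06, SE 0.51, edgeR adjusted p = 0.417). Tnfaip1, an adaptor of cullin-3 ubiquitin ligases, was 81.4, 123 and 140 CPM in blebbistatin explants and 95.1, 136 and 170 CPM in controls (log2 fold change -0.24, SE 0.14, edgeR adjusted p = 0.497). Tnfaip2 averaged 36.2 ± 15.8 CPM in blebbistatin explants and 30.6 ± 7.46 CPM in controls, and Tnfaip8 34.1 ± 5.60 and 29.7 ± 6.57 CPM. The immune regulator Tnfaip8l2 averaged 1.72 ± 1.63 CPM in blebbistatin explants and 1.03 ± 0.712 CPM in controls.

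Other genes of the NF-kB pathway and targets of NF-kB gave 1 called gene. Of 46 pathway genes, which are receptors, adaptors, kinases and regulators together with Rel and Bcl3, 43 were tested. None passed the edgeR test, against 0.606% of all genes. Rel, Bcl3, Birc3 and Tlr2 are counted among the targets below as well. At an unadjusted p under 0.05, 1 of the 43 was higher and 2 lower, against 6.21% and 5.98% of all genes. The 43 had 19 positive log2 fold changes and a median of -0.04. The smallest p-values were those of the adaptor Traf2 (log2 fold change 0.57), the NF-kB-inducing kinase Map3k14 (-1.08), the deubiquitinase Cyld (-0.33) and the TAK1 partner Tab1 (0.69), with edgeR adjusted p from 0.276 to 0.417. Of 28 commonly cited NF-kB targets outside the set 22 were tested and 1 fell, Ptgs2, the inducible prostaglandin synthase. It averaged 132 ± 73.9 CPM in blebbistatin explants and 393 ± 104 CPM in controls (SD, n = 8 each), with a log2 fold change of -1.57 (SE 0.35, edgeR adjusted p = 0.0464). The other 21 did not pass, among them Ptx3 (-1.57, adjusted p = 0.0673), Plaur (-0.66, adjusted p = 0.239) and Ier3 (-0.47, adjusted p = 0.318), and 14 of the 22 fold changes were positive with a median of 0.20. At an unadjusted p under 0.05, 0 of the 22 were higher and 5 lower, against 6.21% and 5.98% of all genes.

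Of 26 receptors for chemokines and colony-stimulating factors 12 were tested and 0 passed the edgeR test, against 0.606% of all genes. At an unadjusted p under 0.05, 1 of the 12 was higher and 1 lower, against 6.21% and 5.98% of all genes. Their median log2 fold change was 0.27. The Cxcl12 scavenger Ackr3 came nearest, at 2.95 ± 1.50 CPM in blebbistatin explants and 8.15 ± 3.06 CPM in controls (SD, n = 8 each; log2 fold change -1.46, SE 0.36, edgeR adjusted p = 0.0601). With the macrophage score in the model Ackr3 was called lower (-1.43, adjusted p = 0.0461). Cxcr2 averaged 20.9 ± 5.71 CPM in blebbistatin explants and 15.9 ± 2.42 CPM in controls (edgeR adjusted p = 0.397), and Cxcr4, the signalling receptor of Cxcl12, 4.65 ± 4.26 and 5.65 ± 5.50 CPM.

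To set leukocyte variation apart from treatment, each gene was fitted on group and macrophage score together, so that a slope is the log2 change of the gene per unit of score within a group. The score holds no gene of the set. Of the 57 genes 5 rose with the score and 1 fell in edgeR's quasi-likelihood test at an adjusted p under 0.05, that is 8.77% of the set higher, against 2% of all genes higher, 0.344% lower and 2.35% in either direction. At an unadjusted p under 0.05, 12 genes of the set had positive and 7 negative slopes, against 6.59% and 5.81% of all genes. The 5 were the CC chemokines Ccl3, Ccl9 and Ccl4, which attract macrophages and other leukocytes, together with Tnf and the interleukin 1 receptor antagonist Il1rn. Ccl4 and Tnf met the table's filter of 1 CPM in at least 4 libraries only through libraries of high score. The 8.77% counts both, so it is not independent of that filter. The gene that fell was Cxcl16.

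Ccl3 was 0.907, 3.12 and 91.6 CPM in blebbistatin explants and 0.536, 2.20 and 28.0 CPM in controls. Its highest value in each group was in the explant of highest macrophage score, blebbistatin 3 and control 6, and its highest library was 171 times its lowest. The slope was 1.29 (SE 0.13, edgeR adjusted p = 2.94e-06), while the log2 fold change for blebbistatin was 1.14 (SE 0.96, adjusted p = 0.685) and was -0.83 without blebbistatin 3. Ccl9 was 1.34, 5.78 and 80.3 CPM in blebbistatin explants and 2.40, 5.48 and 51.2 CPM in controls. The same 2 explants were highest, with 80.3 CPM in blebbistatin 3 and 51.2 CPM in control 6, and the slope was 1.00 (SE 0.12, edgeR adjusted p = 3.3e-05). The log2 fold change of Ccl9 for blebbistatin was 0.30 (SE 0.78, adjusted p = 0.904), and -1.16 without blebbistatin 3.

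Ccl4 was 0.0272, 0.459 and 20.5 CPM in blebbistatin explants and 0, 0.263 and 6.85 CPM in controls, and it exceeded 1 CPM in 5 of the 16 libraries. The 5 were those of highest macrophage score, and because the deposited table keeps genes above 1 CPM in at least 4 libraries, Ccl4 is in it through libraries of high score. Its slope was 1.60 (SE 0.28, edgeR adjusted p = 0.00158) and its log2 fold change for blebbistatin 1.30 (SE 1.26, adjusted p = 0.733), or -0.84 without blebbistatin 3. Tnf was 0, 0.337 and 18.2 CPM in blebbistatin explants and 0, 0.353 and 3.03 CPM in controls, with the 18.2 CPM in blebbistatin 3. Tnf passed 1 CPM in exactly 4 libraries, the 4 of highest score, so its presence in the table rested on those libraries and the slopes of Tnf and Ccl4 are not independent of that filter. The slope of Tnf was 1.44 (SE 0.26, edgeR adjusted p = 0.00238), and its log2 fold change of 1.96 for blebbistatin had an SE of 1.22 (adjusted p = 0.559). Medians of Tnf hardly differed between groups, and without blebbistatin 3 its log2 fold change was -0.28. Il1rn, which blocks Il1r1, was 1.45, 2.06 and 41.6 CPM in blebbistatin explants and 1.91, 3.87 and 12.1 CPM in controls (slope 0.83, SE 0.14, edgeR adjusted p = 0.000967; log2 fold change 0.33, SE 0.71, adjusted p = 0.886). Blebbistatin 3 stood apart in Il1rn as well, without it the log2 fold change was -1.36, and 7 of 8 blebbistatin explants were below the control median.

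Ccl3, Ccl4, Ccl6 and Ccl9 lie close together on chromosome 11, at chr11:83647844-83649355, chr11:83662584-83664683, chr11:83587882-83593087 and chr11:83572919-83578636 (GRCm38), with Ccl4 alone on the plus strand. Ccl6 averaged 1.63 ± 1.79 CPM in blebbistatin explants and 1.97 ± 3.30 CPM in controls, and its slope of 0.93 did not pass (SE 0.39, edgeR adjusted p = 0.304). Ccl2 and Ccl7 of the other chromosome 11 group had slopes of 0.21 and 0.24, with edgeR adjusted p-values of 0.530 and 0.571. Of the windows printed above, that of Ccl9 holds a kB match and that of Ccl3 holds none, and both genes followed the score.

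**Figure D3:**
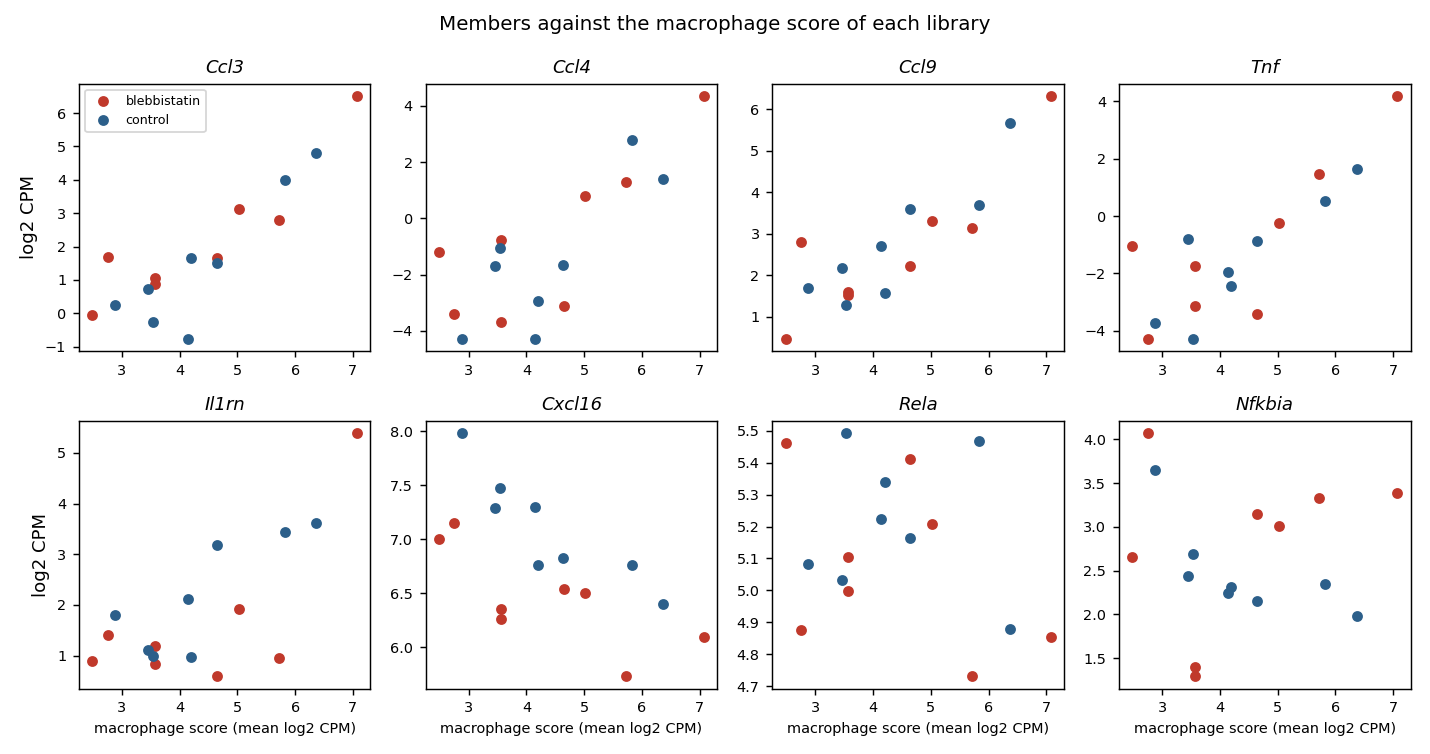
Log2 CPM of 8 genes (y axes) against the macrophage score of the same library (x axis, mean log2 CPM of 17 markers), one point per library. Over all 16 libraries Ccl3, Ccl4, Ccl9, Tnf and Il1rn rise with the score and Cxcl16 falls; within each group alone only the slopes of Ccl3 and Ccl9 passed in both, blebbistatin 3 lies far right at 7.07, and Rela and Nfkbia have slopes of -0.05 and -0.07.

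Cxcl16 ran against the score with a slope of -0.28 (SE 0.05, edgeR adjusted p = 0.00465). It was 252 CPM in control 8, where the score was 2.88, and 84.3 CPM in control 6, where the score was 6.37. In blebbistatin explants it was 128 CPM in blebbistatin 4, which had the lowest score of 2.48, and 52.9 CPM in blebbistatin 6, at a score of 5.72. Fitted together with the score, Cxcl16 was lower with blebbistatin at an adjusted p under 0.05 (log2 fold change -0.64, SE 0.14, adjusted p = 0.0310), the only gene of the set called in that fit, in which 0.906% of all genes were called lower and 1.5% in either direction. The fold change itself barely differed from the -0.66 found without the score, while its standard error was 0.14 in place of 0.22. The epicardial marker sum was lowest in blebbistatin 6, blebbistatin 3 and control 6, which had high scores. It was not low in every such library, being 5093 CPM in blebbistatin 2 at a score of 5.02. A decline of Cxcl16 with the score and one with the epicardial share were not tested apart.

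The other 51 slopes did not pass. Nearest were Ccl17 (-1.29, SE 0.34, edgeR adjusted p = 0.0515), Il1rl2 (-0.24, SE 0.07, adjusted p = 0.0746), Il10ra, the interleukin 10 receptor of myeloid cells (1.32, SE 0.39, adjusted p = 0.0897), and Csf1 (-0.25, SE 0.08, adjusted p = 0.125). Ccl17, a ligand of Ccr4, was 0, 1.15 and 12.2 CPM in blebbistatin explants and 0.177, 2.32 and 2.93 CPM in controls. Its highest values, 12.2 and 11.1 CPM, were in blebbistatin 4 and 5, and its lowest value in each group was in a library of high score. Subunits and inhibitors of NF-kB had slopes from -0.11 to 0.29, none past the threshold, the smallest adjusted p among them being 0.546.

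Within the groups the slopes of Ccl3 and Ccl9 were called each time. In blebbistatin explants alone they were 1.20 (adjusted p = 0.00292) and 0.94 (adjusted p = 0.0215), and in controls alone 1.45 (adjusted p = 0.00410) and 1.13 (adjusted p = 0.00476), by edgeR's quasi-likelihood test over all genes. Ccl4 was also called in blebbistatin explants alone (1.48, adjusted p = 0.0464), and Il10ra (1.95, adjusted p = 0.0394) and Cxcl16 (-0.37, adjusted p = 0.0361) in controls alone, where 0.785% of all genes were called in blebbistatin explants and 0.982% in controls. The test of the difference in slope between groups called 0 of 15675 genes, and the adjusted p was 0.9998 for each gene of the set, so no difference between the groups in how these genes followed the score was detected. Leaving out blebbistatin 3, the slopes of Ccl4 (adjusted p = 0.0839), Tnf (0.127) and Il1rn (0.326) no longer passed, and those of Ccl3 and Ccl9 still did. Without both blebbistatin 3 and control 6, Ccl3 (1.01, adjusted p = 0.0216) was the 1 gene called higher, Ccl9 was at 0.61 (adjusted p = 0.260), Il1rn at 0.39 (adjusted p = 0.769), Ccl4 and Tnf fell below the filter on low counts, and Cxcl16 was still called lower (-0.34, adjusted p = 0.0312).

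**Figure D4:**
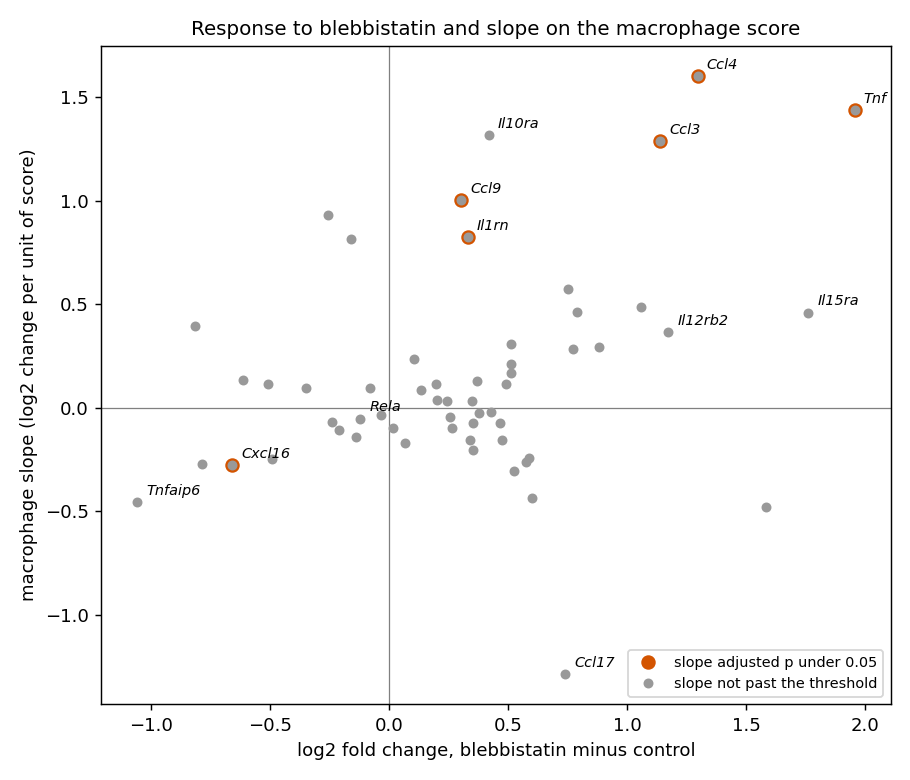
Log2 fold change of blebbistatin over control (x axis) against the slope on the macrophage score in log2 per unit (y axis) for the 57 genes; orange marks slopes with an adjusted p under 0.05. Ccl3, Ccl4, Ccl9, Tnf and Il1rn lie at slopes of 0.83 to 1.60 with positive but uncalled fold changes that turn negative without blebbistatin 3, and Cxcl16 lies at -0.28 and -0.66.

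Some receptors of these ligand families rose with the score as well. Of the 12 tested receptors for chemokines and colony-stimulating factors, Csf1r and Cx3cr1 are part of the score and say nothing here. Of the 10 others 2 rose with it, where 2% of all genes did: Cxcr4 (slope 0.80, SE 0.14, edgeR adjusted p = 0.00225) and Csf2rb, the shared chain of the receptors for GM-CSF, interleukin 3 and interleukin 5 (0.75, SE 0.15, adjusted p = 0.00783). Of the 43 NF-kB pathway genes 1 rose, the RANK receptor Tnfrsf11a (0.49, SE 0.10, adjusted p = 0.00868). Of the 22 NF-kB targets 1 rose, Bcl2a1b, a survival gene of leukocytes with near-identical paralogs among which reads can be split (1.19, SE 0.18, adjusted p = 0.000522).

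**Figure D5:**
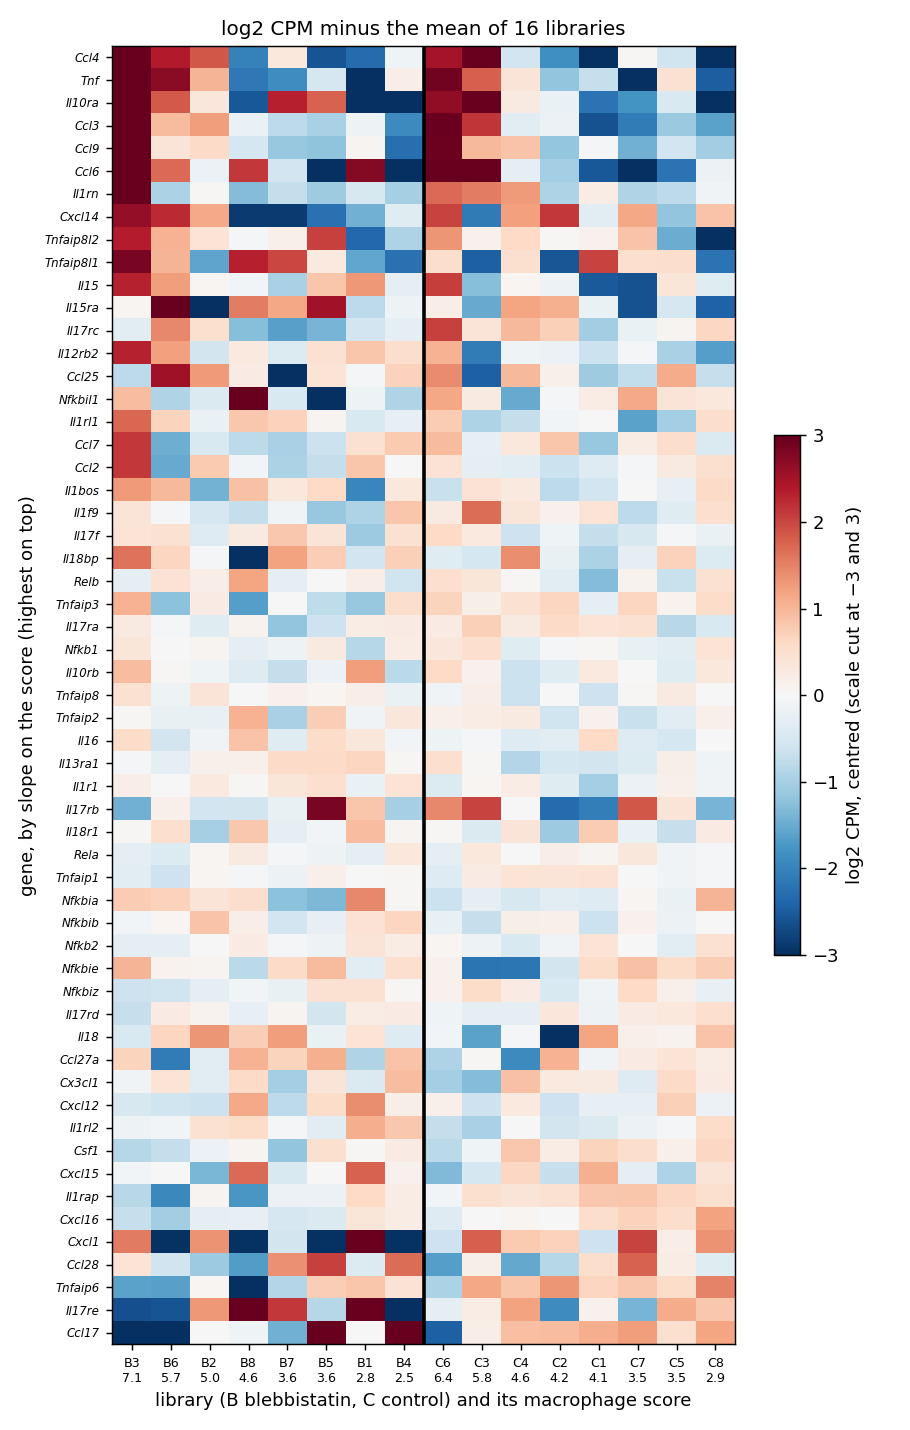
Log2 CPM of the 57 genes minus each gene's mean over 16 libraries (colour, limited to ±3), with blebbistatin libraries left of controls and each group ordered by falling macrophage score. Rows run from the highest to the lowest slope: the top rows, with Ccl4, Tnf, Il10ra and Ccl3, are reddest toward the left edge of each group, where the score is highest, and the rows of Rela and Nfkb1 vary little.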

How the data were processed

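Per the labels, RNA of 16 explants was amplified with the Ovation RNA-Seq System V2 and made into Nextera XT libraries. The submitters' processing notes name the counter HTSeq (0.6.1p1), the aligners TopHat2 (2.1.0) and Bowtie2 (2.2.6.0), edgeR and SAMtools (1.3), and the builds mm10 and GRCm38. The authors deposited raw counts per gene, and each of the 15805 genes is above 1 CPM in at least 4 libraries, so lower genes are outside the table; 9 genes of the set reach that level in exactly 4 libraries, 7 through 1 group alone. The labels and files do not state a strand setting for the counting. Of the gene names 93 were blank or had turned into dates; 15665 identifiers matched GENCODE M21.

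Groups follow the sample titles. Counts were scaled by TMM and tested on group with edgeR 4.0.16 (quasi-likelihood, robust, filterByExpr leaving 15675 genes, Benjamini-Hochberg, threshold 0.05; R 4.3.3), with SE as the log2 fold change over the square root of F. The biological coefficient of variation was 50.12%. CPM are TMM-scaled, and 2 was the prior count on the log2 scale. The slope model added the macrophage score; scores and sums used exact permutation tests. Scripts were tested on simulated data. Alternatives included DESeq2 1.42.0 and limma 3.58.1 (voom), RLE scaling, filters, added covariates and left-out libraries. No pairing was given, and replicate numbers were not used to pair the samples in the main tests. No pair of libraries was a duplicate: the closest, controls 7 and 8, had a chi-square per degree of freedom of 48.9.

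Full values were given to genes called for blebbistatin, the 8 of smallest p for blebbistatin, the 6 of highest mean CPM and the 8 of smallest p for the slope, and of the pathway lists to called genes and the 4 of smallest p. Genes and lists were chosen with earlier results of these data known. Promoter sequences are RefSeq's on GRCm38.p6; no interval was given for counting error, since replicate spread was far larger.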

Additional observations from a re-analysis of the deposited data

Results flagged for a closer look

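In 3 of 34 groups of 8 libraries, 1 library lay further from its nearest neighbour than Dixon's 95% limit allows for 8 samples, where chance gives about 1 in 20. Il1rn was highest in blebbistatin 3, at a log2 CPM of 5.38 (41.6 CPM, a gap of 0.721 of the range), the library with the highest macrophage score. Ccl17 was lowest in control 6, at a log2 CPM of -2.13 (0.177 CPM, gap 0.717), and so was Tnfaip6, at 0.52 (1.38 CPM, gap 0.610). Control 6 had the highest macrophage score of the controls and their lowest epicardial marker sum; the part of either in these values was not tested.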

How the results depend on the processing

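No gene of the set was called higher for blebbistatin under the 26 alternatives, and 1 was called lower, Cxcl16, only with the macrophage covariate; over all alternatives its adjusted p was 0.0310 to 0.451. The 95 genes called in the whole table became 174 at a mean of at least 5 CPM, 412 with DESeq2, 177 with the replicate block, 235 with the macrophage covariate, 22 with a Y-linked covariate and 44 to 206 with 1 library left out. Genes of the set rising with the score (5) numbered 3 at a mean of at least 5 CPM, which removes Ccl4 and Tnf, 8 with limma-voom, 3 in blebbistatin explants alone, 3 in controls alone, 1 without blebbistatin 3 and control 6, and 2 to 6 with 1 library left out. Those falling (1) numbered 4 with DESeq2, 0 in blebbistatin explants alone, 2 with a score of 4 genes, 2 without blebbistatin 1 and 8, 2 with the Y-linked covariate and 1 to 4 with 1 library left out. All genes called for the score (368) became 665 with DESeq2, 123 in blebbistatin explants alone, 154 in controls alone, 171 without the highest and lowest score, 112 without blebbistatin 3 and control 6, and 183 to 453 with 1 library left out. Over all alternatives this count was 19 to 665. It is not given here for limma-voom, a mean of at least 5 CPM, the score of 4 genes or the Y-linked covariate, nor without blebbistatin 1 and 8. The counts of the set under those settings therefore have no share of all genes beside them. The difference in macrophage sum ranged from -488 to 463 CPM with 1 library left out.

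Uncalled log2 fold changes turned negative as follows. With 1 library left out they ranged from -0.83 to 2.003 (Ccl3), -0.84 to 2.62 (Ccl4), -1.16 to 1.21 (Ccl9), -1.36 to 0.58 (Il1rn) and -0.28 to 2.83 (Tnf), the low ends all being without blebbistatin 3, and with the Y-linked covariate -0.92, -0.90, -1.25, -0.72 and -0.37 in that order. Without blebbistatin 3 and control 6 Ccl9 was -0.26 and Il1rn -1.12, and without blebbistatin 1 and 8 Cxcl12 was -0.19. Ccl9 was -1.14 with DESeq2. Ccl17 was -1.16 with limma-voom and -0.33 with the macrophage covariate, and Il1rn -0.23 and -0.26. The uncalled slope of Il13ra1, near 0 at -0.02, changed sign. It was 0.15 in controls alone, 0.0106 without blebbistatin 1 and 8, and -0.111 to 0.0160 with 1 library left out (0.0104 and 0.00807 without blebbistatin 1 and 6). The uncalled slope of Il12rb2, 0.37 over all libraries, was -0.00034 without blebbistatin 3 and control 6. The causes were not tested.

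Same-numbered samples had correlations of deviations of 0.0039 to 0.279, and 2 of 8 numbers were matched best by their own. The numbers were not taken to pair samples, though these values do not exclude a pairing. With the replicate block 0 genes of the set rose, 0 fell and 19 genes in all were called for the score. Under that block the log2 fold changes of Ccl17, Ccl9 and Il1rn were -1.05, -0.058 and -0.51, and the slopes of Cxcl12, Il17ra and Tnfaip1 were 0.081, -0.00065 and 0.048. Leaving out blebbistatin 3 with control 6, the recount of signs without blebbistatin 3, and the slope fits without blebbistatin 1 and 8 or with the Y-linked covariate were chosen after seeing the data. Low genes limit the precision: the median SD of log2 CPM among genes under 5 CPM was 1.56 in blebbistatin explants and 1.18 in controls, against 0.54 and 0.42 above it.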
